A study of Homo sapiens with 4 samples.

Results

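The chemokine and EGF ligand cluster of 4q13 is a 1.16 Mb stretch of chromosome 4 from 74600001 to 75760000 in hg19, and all positions given here are in that build. It holds 9 named genes in 29 bins of 40 kb, of 71569 bins with a lamin B1 value in both cell lines. The bins were found by position. The stretch itself had been selected on the enrichment values, because it contains a run of bins that were high in LNCaP and low in VCaP. Every level and every difference between the lines below is therefore a description with no test.

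DNA bound to lamin B1 was recovered by immunoprecipitation and sequenced (ChIP-seq) from LNCaP, an established human line of prostate adenocarcinoma, and from VCaP, an established human line of bone metastatic prostate cancer. Both were fixed with formaldehyde while growing in serum, LNCaP in RPMI and VCaP in a DMEM and Ham's F12 mix, and the labels name no drug and no genetic change. Per line there was a single ChIP library with its input, made without antibody, so the 4 libraries have no replicates. The unit is log2 enrichment of the lamin B1 library over the input of the same line, and 0 means equal coverage after the authors' scaling. A deposited hidden Markov model gave each bin 1 of 2 states, called AD and iAD in the table, and AD is called associated here because it has the higher enrichment.

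Lamin B1 lines the inner face of the nuclear envelope, and chromatin bound to it is typically late replicating, poor in active genes and enriched in repressive marks. CXCL8, CXCL1, CXCL5, CXCL3 and CXCL2 encode CXC chemokines with an ELR motif, which draw neutrophils through the receptor CXCR2 and, for CXCL8, also CXCR1, and are classic targets of the transcription factor NF-kB. EPGN, EREG, AREG and BTC encode epigen, epiregulin, amphiregulin and betacellulin, membrane-anchored growth factors that are shed and activate the EGF receptor and, for some, ERBB4. Each family lies side by side on 4q13, the chemokines first.

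The main pattern was an island of lamina association in LNCaP. It spanned 12 bins and 480 kb from 74960001 to 75440000 and held CXCL2, EPGN, EREG and AREG. Log2 enrichment there averaged 0.35 ± 0.07 in LNCaP but -0.68 ± 0.11 in VCaP. The VCaP minus LNCaP difference was -1.03 ± 0.10. Each error is a noise SD, taken from bins 3 apart across the genome, and it does not cover variation between cultures or immunoprecipitations. The other 4 chemokine genes and BTC lay outside it and were not in the associated state in either line.

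The start regions of these genes are shown to make the families visible, and to show how alike the genes on the sides of the island's left border are. The sequences are the 250 bases before the annotated start in RefSeq (GRCh38.p14), in gene orientation, 5′ to 3′. All 9 genes were matched by symbol, and no position of that build is used. Capitals mark GGAATTTCC, an NF-kB type motif, or TGACGTCA, the cAMP response element, searched on both strands. No sequence of the 9 holds both motifs. CXCL3 is the last chemokine outside the island and CXCL2 the only one inside.
CXCL3: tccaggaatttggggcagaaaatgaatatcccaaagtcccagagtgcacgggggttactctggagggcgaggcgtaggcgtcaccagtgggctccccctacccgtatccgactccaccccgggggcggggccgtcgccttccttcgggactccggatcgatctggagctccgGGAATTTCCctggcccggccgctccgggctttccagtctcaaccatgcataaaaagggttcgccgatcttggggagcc
CXCL2: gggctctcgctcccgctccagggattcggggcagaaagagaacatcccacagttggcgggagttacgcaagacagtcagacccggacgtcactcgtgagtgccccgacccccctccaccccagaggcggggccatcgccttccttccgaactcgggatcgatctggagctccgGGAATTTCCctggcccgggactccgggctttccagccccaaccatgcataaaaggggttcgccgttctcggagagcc

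EPGN and EREG had the highest LNCaP values of the 9 genes and are shown in full, with neither motif in this window.
EPGN: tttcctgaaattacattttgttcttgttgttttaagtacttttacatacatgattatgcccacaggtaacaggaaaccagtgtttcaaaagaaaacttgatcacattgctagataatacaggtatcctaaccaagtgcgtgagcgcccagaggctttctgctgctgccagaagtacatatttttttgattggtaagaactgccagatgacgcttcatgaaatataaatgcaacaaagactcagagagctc
EREG: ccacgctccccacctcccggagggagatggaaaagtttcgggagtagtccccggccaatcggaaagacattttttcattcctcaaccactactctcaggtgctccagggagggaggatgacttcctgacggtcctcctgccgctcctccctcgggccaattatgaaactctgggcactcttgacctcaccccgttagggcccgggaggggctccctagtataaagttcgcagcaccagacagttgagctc

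For the 3 remaining chemokines and for AREG, a short window around the motif is shown.
CXCL8: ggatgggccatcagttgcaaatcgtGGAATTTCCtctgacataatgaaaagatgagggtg
CXCL1: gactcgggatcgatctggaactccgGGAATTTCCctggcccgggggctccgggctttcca
CXCL5: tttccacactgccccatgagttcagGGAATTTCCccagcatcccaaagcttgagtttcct
AREG: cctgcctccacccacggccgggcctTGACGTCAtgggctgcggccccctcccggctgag

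All 5 chemokine sequences held GGAATTTCC, and 0 of the 4 EGF ligand sequences did. The same letters were found in 145 of 35116 RefSeq sequences of this length (0.413%). TGACGTCA was found in AREG alone among the 9, and in 1.65% of all sequences. TATAAA was found in CXCL8, EPGN, EREG and AREG, and in 10.7% of all sequences. CXCL3 and CXCL2 were identical at 73.4% of aligned positions, CXCL1 and CXCL3 at 81.4%, and CXCL1 and CXCL2 at 70.1%. The 20 pairs made of a chemokine and an EGF ligand ranged from 45.2% to 51.7%. A match is a description of letters, and binding to these sequences was not measured.

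In LNCaP, 12 of the 29 bins of the cluster were associated, against 37.9% of all bins. In VCaP, 0 of the 29 were, against 44.4% of all bins. So 12 bins were associated in LNCaP only, against 17.2% of all bins. In 8 of the 29 bins VCaP was more than 2-fold lower than LNCaP, a log2 difference below -1, against 0.736% of all bins. Since the stretch was chosen for this contrast, nothing is read from these shares.

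Averaged over the 29 bins of the cluster, LNCaP had a log2 enrichment of 0.00 ± 0.05 and VCaP one of -0.46 ± 0.07, a difference of -0.47 ± 0.06 (noise SD of the mean). The LNCaP mean near 0 combines depleted and enriched bins, since single bins ran from -0.73 to 0.51. In VCaP they ran from -1.01 to 0.00. VCaP was lower in 23 of the 29 bins, and in 29954 of all 71569 bins. The difference lay beyond the noise limit of 0.39 (close to 2 SD of a single bin) in 12 of the 29 bins, all of them in the island. Over the genome it did so, in either direction, in 30296 of 71569 bins, so passing this limit was common. The median difference over bins was -0.29, nearer to 0 than the mean.

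**Figure D1:**
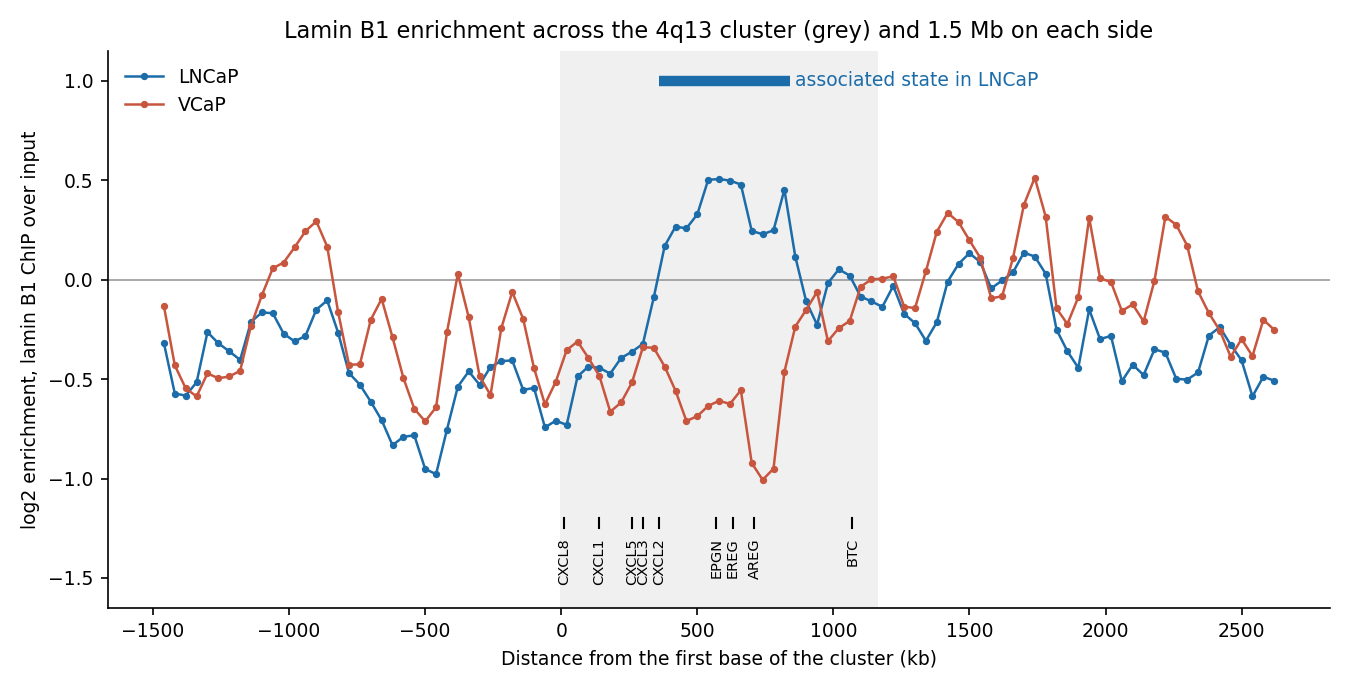
Lamin B1 log2 enrichment per 40 kb bin in LNCaP and VCaP against distance from the first base of the cluster in kb, with the cluster in grey, gene positions as ticks and the associated state of LNCaP as a bar. LNCaP rises to 0.51 inside the 12-bin island, where VCaP falls to -1.01, and neither line is in the associated state in the 74 flanking bins.

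The island stood alone in its surroundings. In the 1.5 Mb on each side, 0 of 74 bins were associated in LNCaP and 0 of 74 in VCaP. The states of the lines are not on a common scale of enrichment. In the right flank VCaP reached 0.51 without being associated, whereas the LNCaP bin of CXCL2 was associated at 0.17. A stretch without the state is thus not a stretch without enrichment. The nearest other associated bin of LNCaP ended at 63440000, 11520 kb to the left, and the next one began at 81200001, 5760 kb to the right. The 12 bins were thus the only associated ones of LNCaP in 17.76 Mb. In VCaP the stretch around the cluster without any associated bin was 19.16 Mb long, between bins that ended at 58960000 and began at 78120001. Of 856 LNCaP domains of at least 5 bins with a neighbour on both sides, 11 lay farther from their nearest neighbour than this one, and the median distance was 440 kb.

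The flanks show what the levels around the cluster were. On the left, LNCaP averaged -0.49 ± 0.04 and VCaP -0.29 ± 0.06, and on the right LNCaP averaged -0.24 ± 0.04 and VCaP 0.01 ± 0.06. In both flanks VCaP was higher, by 0.20 ± 0.06 on the left and 0.24 ± 0.06 on the right. The direction in the island was thus the opposite of that beside it. The mean VCaP minus LNCaP difference was 0.12 over all bins of the genome and -0.08 over chromosome 4. The size of the flank differences thus depends on the level on which the lines are centred. The lines followed each other in the flanks, with a Pearson r of 0.71 across 74 bins, 0.63 on the left alone and 0.58 on the right. Across the 29 bins of the cluster r was -0.39, which contains the contrast of the island with its surroundings that the stretch was selected on. Within the 12 bins of the island r was 0.40, in the 9 bins left of it 0.06, and in the 8 bins right of it -0.72. These bins share averaged entries and libraries, and r is given as a description. In the reference gene order, ALB, AFP, AFM and RASSF6 precede CXCL8 on the left, and PARM1, an androgen-regulated prostate mucin-like gene, follows BTC on the right.

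CXCL8 encodes interleukin-8, a strong neutrophil attractant. Its bin, 74600001 to 74640000, had a LNCaP log2 enrichment of -0.73, against -0.35 in VCaP. It was the one chemokine gene with the lower value in LNCaP, and the difference of 0.38 was just inside the noise limit of 0.39 for a single bin. Only 1.64% of all LNCaP bins were lower. The bin just outside the cluster on this side had -0.71 in LNCaP and -0.51 in VCaP, so the cluster's left end lay in an already depleted stretch.

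CXCL1, also known as GRO alpha and a ligand of CXCR2, had -0.44 in LNCaP and -0.48 in VCaP (74720001 to 74760000). CXCL5, a chemokine of epithelial cells, had -0.36 and -0.52 (74840001 to 74880000). CXCL3, or GRO gamma, had -0.32 and -0.34 (74880001 to 74920000). The differences of these 3 genes ran from -0.15 to -0.02, all within the noise limit, so no difference between the lines was detectable in these single bins. The reference order places CXCL6 and PF4V1 between CXCL8 and CXCL1, and the platelet chemokine genes PF4 and PPBP between CXCL1 and CXCL5. From the bin of CXCL8 to that of CXCL5 the values ran from -0.73 to -0.36 in LNCaP and from -0.66 to -0.31 in VCaP, with 0 associated bins in either line.

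CXCL2, or GRO beta, was the first gene of the island (74960001 to 75000000). It had 0.17 in LNCaP, where the bin was associated, and -0.44 in VCaP, where it was not. The difference of -0.61 lay beyond the noise limit. From CXCL3 to CXCL2, which are 2 bins apart, LNCaP rose by 0.49 and VCaP changed by -0.10, with a noise SD of 0.21 and 0.32 for such a step. The border of the LNCaP state thus lay between a pair of chemokine genes whose 250-base start regions are 73.4% identical.

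The gene order places 1 other protein-coding gene inside the island, MTHFD2L, a mitochondrial enzyme of folate metabolism, between CXCL2 and EPGN. The 6 bins from CXCL2 to EPGN were all associated in LNCaP, with values from 0.17 to 0.51. In VCaP they ran from -0.71 to -0.44. Each line has a single value per bin, so these ranges run over bins and not over replicates.

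EPGN, the ligand epigen, had 0.51 in LNCaP and -0.61 in VCaP (75160001 to 75200000). EREG, the ligand epiregulin, had 0.50 and -0.63 (75200001 to 75240000). These neighbouring bins share averaged entries and count as little more than 1 measurement. The differences of -1.11 and -1.12 correspond to a relative coverage 2.16 and 2.18 times higher in LNCaP. Of all LNCaP bins, 87.0% were lower than that of EPGN, and of all VCaP bins 3.50% were.

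AREG, the ligand amphiregulin, had 0.24 in LNCaP and -0.92 in VCaP (75280001 to 75320000). Its difference of -1.17 was the most negative of the 9 genes, by less than the noise against EPGN and EREG, and 0.496% of all VCaP bins were lower. Both lines were lower here than at EREG, by 0.25 in LNCaP and 0.30 in VCaP. These averaged values share an entry, and each step is below the limit of 0.41 and 0.62 for a gap between single bins. With the averaging undone, as described below, the AREG bin had -0.28 in LNCaP and -1.81 in VCaP, against 0.48 and -0.44 at EREG. The hg19 assembly carries another, near-identical copy of AREG, named AREGB, a name that the RefSeq table for GRCh38 lists as a synonym of AREG. Reads of the copies cannot be assigned with certainty, so the value of this bin is uncertain, and the effect on it was not tested. Each deposited value averages 3 entries, so the bins from 75320001 and 75360001, with -1.01 and -0.95 in VCaP, contain the AREG entry too. Without these 3 bins LNCaP averaged 0.38 in the island, VCaP averaged -0.59, and the difference was -0.97.

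BTC, the ligand betacellulin, was the EGF ligand outside the island (75640001 to 75680000). LNCaP had 0.02 and VCaP -0.21 there, and the difference of -0.23 was within the noise limit. From AREG to BTC, 9 bins apart, VCaP rose by 0.71 with a noise SD of 0.32, and LNCaP changed by -0.22 with a noise SD of 0.21. Past the last bin of the cluster, the values were -0.14 in LNCaP and 0.00 in VCaP.

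Ordered by level in LNCaP, CXCL8 was lowest, followed by CXCL1, CXCL5, CXCL3, BTC, CXCL2, AREG, EREG and EPGN. No pair of neighbours in that order differed by more than 0.34, below the limit of 0.41 for the gap between single bins. In VCaP the order ran from AREG through EREG, EPGN, CXCL5, CXCL1, CXCL2, CXCL8 and CXCL3 to BTC, with gaps of at most 0.30 against a limit of 0.62. The order of neighbours is thus within noise in both lines.

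**Figure D2:**
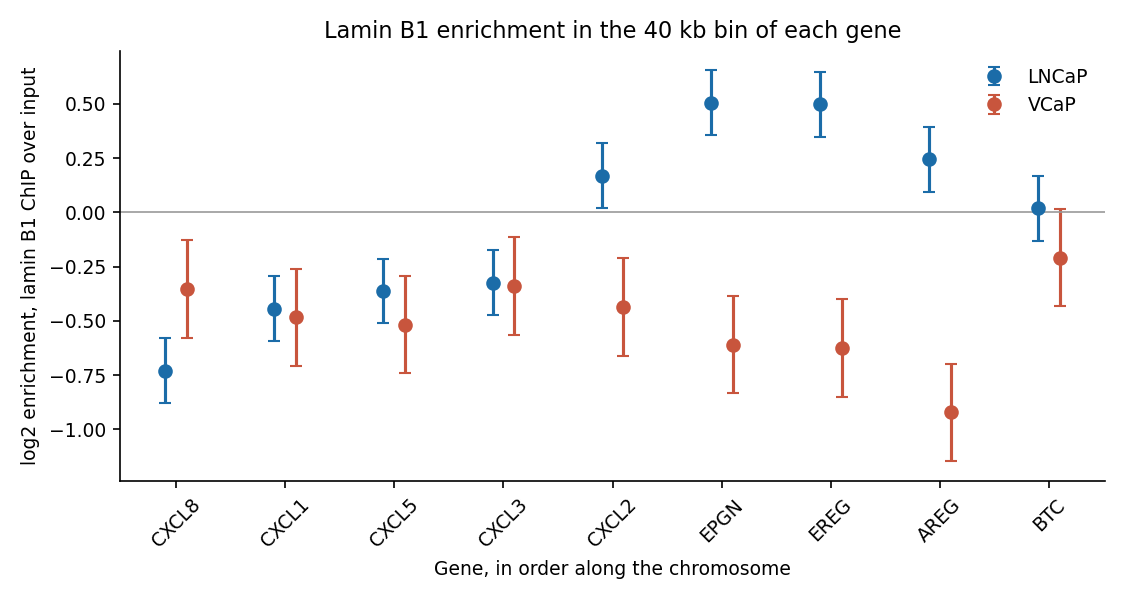
Log2 enrichment in the 40 kb bin of each of the 9 genes, in chromosomal order, for LNCaP and VCaP, with bars of 1 noise SD of a single bin (0.15 in LNCaP and 0.23 in VCaP). The lines lie together at CXCL1, CXCL5 and CXCL3 and lie apart by 0.61 to 1.17 at CXCL2, EPGN, EREG and AREG.

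By family, the 10 bins from CXCL8 to CXCL2 averaged -0.36 ± 0.08 in LNCaP and -0.45 ± 0.12 in VCaP. The 13 bins from EPGN to BTC averaged 0.19 ± 0.07 in LNCaP and -0.49 ± 0.11 in VCaP. The EGF ligand minus chemokine difference was 0.55 in LNCaP and -0.04 in VCaP. The family line and the border of the island do not coincide, since CXCL2 lay inside and BTC outside.

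The deposited values are running means of each entry and the 2 before it, which moves a border downstream by about 1 bin. With that mean undone, LNCaP went from -0.22 in the bin of CXCL3 to 0.43 in the next bin and 0.29 in the bin of CXCL2. The step thus lay 1 bin further left than the deposited state, and CXCL2 was not on the edge but 1 bin inside it. At the right edge, LNCaP fell from 0.33 in the last bin of the island to -0.58 in the next. That low value was a single bin, and the bins after it had -0.08, -0.02, 0.05 and 0.13. Across the left step, the 6 bins from 74920001 on averaged 0.78 more than the 6 before in LNCaP, and in VCaP the difference was -0.09. Across the right step, the 6 bins from 75440001 on differed from the 6 before by -0.45 in LNCaP and 0.56 in VCaP. The 6 before include the uncertain bin of AREG, with -0.28 in LNCaP and -1.81 in VCaP, so the size of this step depends on it.

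The undone values also set the bin of AREG apart. It had -0.28 in LNCaP, between 0.53 and 0.43 in the bins beside it, and -1.81 in VCaP, between -0.52 and -0.69. It was lower than the mean of its neighbours by 0.76 in LNCaP and 1.21 in VCaP, where the noise SD of a single undone bin is 0.18 and 0.27. So the dip was in both lines, and the AREG bin itself was below 0 in LNCaP although its deposited value was 0.24. Its undone VCaP minus LNCaP difference was -1.54, and the bins beside it had -1.05 and -1.12.

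**Figure D3:**
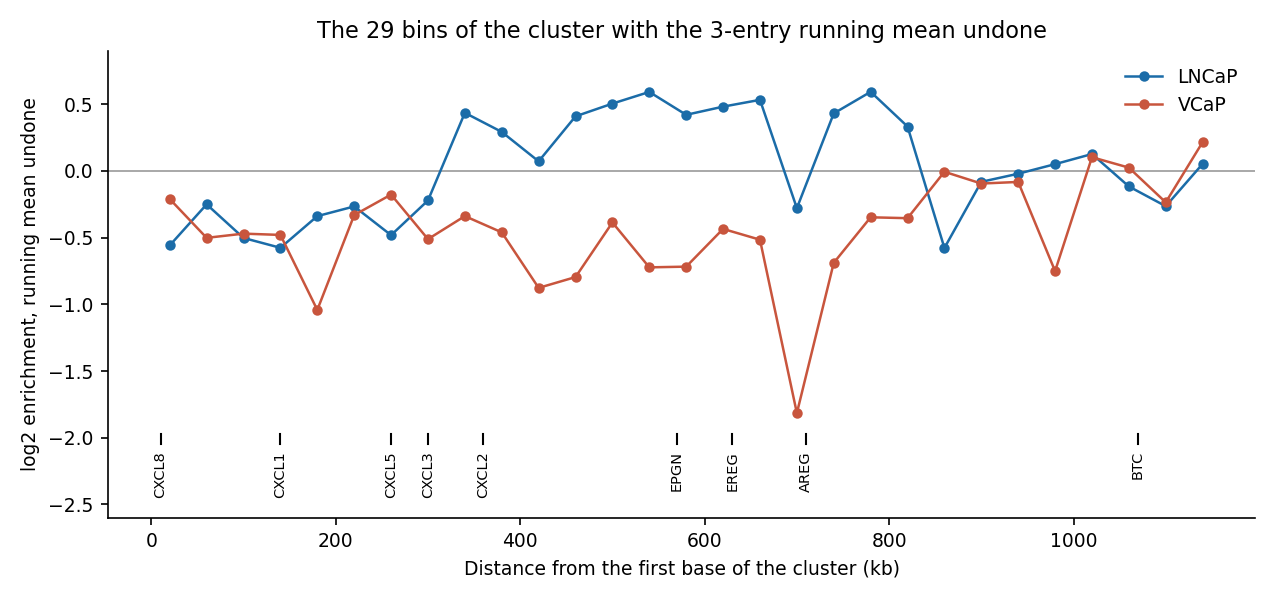
Log2 enrichment of the 29 bins with the 3-entry running mean undone, against distance from the first base of the cluster in kb, for LNCaP and VCaP. LNCaP is above 0 from the bin before CXCL2 to the end of the island except at AREG, where LNCaP is -0.28 and VCaP -1.81.

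The island was compared with the 895 associated domains of LNCaP that hold at least 5 bins. Its own LNCaP mean of 0.35 was ordinary among them, with 46.9% of domains lower and a median of 0.36, and with 12 bins it was shorter than the median of 20. Its VCaP mean of -0.68 was at the low end, against a median of 0.27. The next lowest, on chromosome 1 from 98000001 to 98840000, had -0.64, which is within noise of the island and below the -0.59 that the island had without the 3 bins with the AREG entry. That domain also had the more negative VCaP minus LNCaP difference, -1.11. In 280 of them (31.3%) no bin was associated in VCaP, so a LNCaP domain without the state in VCaP was common. Such a domain can still be enriched in VCaP, unlike the island. On chromosome 4 from 43000001 to 44680000, VCaP had 0 associated bins and a mean of 0.22. The low VCaP level is part of what the stretch was selected on. In LNCaP the island was 0.53 higher than the 5 bins on each side. In VCaP it was 0.33 lower than those bins, whereas the median domain was 0.25 higher, and 5 of the 895 had a lower value. VCaP was lower inside than beside the domain in 125 domains (14.0%).

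**Figure D4:**
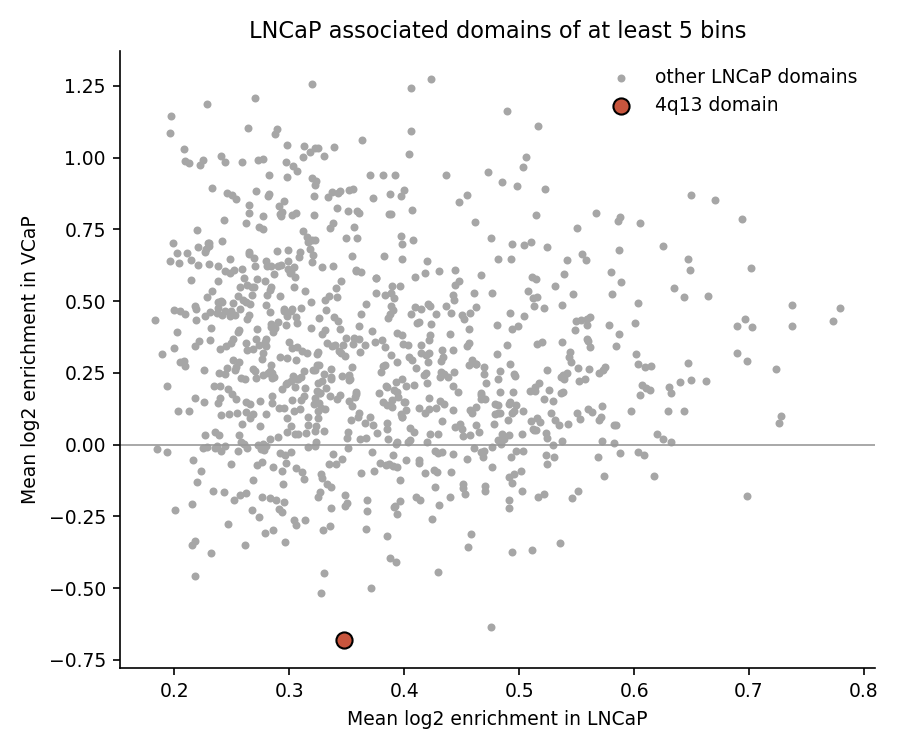
Mean log2 enrichment in VCaP against that in LNCaP for the 895 LNCaP associated domains of at least 5 bins, each a point, with the 4q13 island marked. The island lies at 0.35 in LNCaP, in the middle of the range, and at -0.68 in VCaP, at the low end beside a domain at -0.64 from which it does not differ beyond noise.

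Chromosome 4 alone had medians of 0.09 in LNCaP and 0.03 in VCaP. Of 4609 windows of 12 bins that do not overlap the island, 23 had a more negative VCaP minus LNCaP difference, and the most negative reached -1.27. In VCaP 58 of these windows were lower than the island and 3440 were lower in LNCaP. Windows that overlap each other are not independent, and these counts carry no test. Gene expression was not measured in this series, so no value here bears on the output of these genes.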

How the data were processed

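The authors deposited log2 enrichment of lamin B1 ChIP over input per 40 kb bin and a state label, another kind of value, for each line. Per the submitters' processing notes, hg19 and STAR were used. How ChIP and input were scaled, and the settings of the model, are not given in the sources used here. Depth is unknown, so no counting error is given.

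The deposited log2 values were checked for averaging. Multiplied by 3, 94.8% of LNCaP and 96.4% of VCaP values were whole numbers at the seventh decimal (tolerance 0.01 units of it), against 31.8% and 32.0% unmultiplied. The first 2 entries of each chromosome lacked a value. Each value is thus the mean of an entry and the 2 before it. That mean was undone from differences of successive values, setting the median step between the 3 interleaved series to 0. The procedure was tested on simulated data with a smooth level and even noise, without rounding and with all entries alike in width. The deposited values include 207 entries of another width in LNCaP and 226 in VCaP, which that test did not cover.

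Noise SD is the median absolute difference between bins 3 apart, scaled by 1.4826 and divided by the square root of 2: 0.15 in LNCaP, 0.23 in VCaP and 0.20 for their difference. It includes real change between bins. Limits are 1.96 SD, and a mean counts 1 separate value per 3 bins. Each gene was given the bin that holds its position, known to 0.01 Mb. The named genes are all 9 of the cluster and those the RefSeq order places beside them. Other chemokines, EGF family ligands and receptors that the plan listed were left out, as the gene table is of GRCh38. Start regions were aligned globally with Biopython 1.88. Members and lists were chosen with earlier results of these data known. Python 3.11.15, numpy 2.4.6 and pandas 2.3.3 were used.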

Additional observations from a re-analysis of the deposited data

Results flagged for a closer look

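In the island of 12 bins every deposited LNCaP value was above 0 and every VCaP value below 0, with a mean VCaP minus LNCaP difference of -1.03. Opposite signs of the deposited values were also found in the single bins of CXCL2 (difference -0.61), EPGN (-1.11), EREG (-1.12), AREG (-1.17) and BTC (-0.23). With 1 library pair per line these differences were not tested. The LNCaP value of BTC, 0.02, is within noise of 0, so its sign carries no weight. With the running mean undone, the AREG bin was below 0 in both lines, at -0.28 in LNCaP and -1.81 in VCaP. The opposite signs at AREG thus hold for the averaged values only.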

How the results depend on the processing

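For 23 results 133 alternative values were obtained, and none that lay beyond the noise limit changed sign. Centring each line on its genome median moved the cluster means to -0.056 in LNCaP and -0.66 in VCaP and their difference to -0.60. Division by the SD in addition gave -0.55, and the median over bins gave -0.29. Against the left flank alone the cluster was 0.49 higher in LNCaP and -0.18 in VCaP, and against the right flank alone 0.24 and -0.47, around 0.36 and -0.32 for both flanks. In LNCaP the EGF ligand bins (EPGN to BTC) minus the chemokine bins (CXCL8 to CXCL2) were 0.39 with the running mean undone and 0.40 when shifted by 1 entry. With the EGF ligand bins ended at AREG, a choice made after seeing the data, the difference was 0.79 in LNCaP and -0.23 in VCaP. With enrichment over 0.5 as the associated state, 2 bins were associated in LNCaP (13.3% of all bins) and 2 in LNCaP only (8.75%). With enrichment over 0, 1 bin was associated in VCaP (66.9% of all bins), as with a running median of 5 bins (67.8%). Of the values of single genes 54 kept their size and 9 moved by more than 1 noise SD. Of those for the cluster, flanks, families, bin counts and island, 50 kept their size and 20 did not. Some values within noise changed sign. With the mean undone, the differences at CXCL5, BTC and CXCL1 became 0.30, 0.14 and 0.10, and the family difference in VCaP became 0.02. When shifted, BTC became 0.05 and the family difference in VCaP 0.02. Centred on chromosome 4, CXCL3 became 0.04 and CXCL1 0.01. With 1 of every 3 bins the LNCaP cluster mean was -0.03. For the island, all alternatives were added after seeing the data. Its difference became -1.16 when centred on the genome median and -1.14 with quantile normalization, and its LNCaP mean was 0.42 with the mean undone and the AREG bin left out. No paired analysis was possible because the groups hold a single library apiece. Without depth, noise between bins is the only limit on single genes.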
